A study of Homo sapiens with 4 samples.

Results

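The genes described here were 10 transcription factor genes that set the balance between epithelial and mesenchymal states: SNAI1, SNAI2, ZEB1, ZEB2, TWIST1 and TWIST2, which drive epithelial-mesenchymal transition (EMT), and OVOL1, OVOL2, GRHL1 and GRHL2, which keep cells epithelial. They were chosen by name while results of the same comparison were known, including a lower level of SNAI2 and a higher level of OVOL2 after FOXP4 loss. Their differences between the groups are therefore given as a description, and no p-value is printed for them. Of the 10 genes, 9 were among the 15218 genes of the count table and 8 passed the filter on low counts, which left 14620 tested genes. GRHL2 was read only from a second table of 20263 genes, in TPM, a unit scaled for both transcript length and library size.

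HEK293T cells, a human embryonic kidney line, were sequenced as bulk mRNA in 2 control libraries and 2 libraries of cells with less FOXP4, called FOXP4 KO here as in the sample titles. The genotype entry of the KO libraries reads FOXP4 knock down, and the study's text names both CRISPR-Cas9 and, in its methods, an shRNA virus with puromycin selection, so the kind of perturbation is not settled by the sources. All cells were grown in the same serum medium, and the study's text calls the control cells FOXP4 wild-type, without naming a control vector for them. Nothing says that the libraries of a group came from separate cultures, and the titles number both KO libraries as KO1, so the p-values measure the spread between these libraries and the KO group may be a single line.

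SNAI and ZEB proteins are zinc finger repressors that bind E-boxes with the letters CAGGTG in front of epithelial genes such as CDH1, and TWIST proteins are basic helix-loop-helix (bHLH) factors that act in pairs with E proteins. OVOL and GRHL proteins work in the other direction: OVOL proteins repress ZEB1 and other mesenchymal genes, and GRHL proteins activate genes of cell junctions. HEK293T cells are not a typical epithelium, and they express genes of embryonic kidney and of neurons.

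Upstream sequence shows where these factors could meet their letters. The RefSeq promoter table (GRCh38.p14, 250 bases before to 50 after each start) matched 4 of the 10 genes, ZEB1, ZEB2, TWIST2 and GRHL1, with 10 windows in all. The first piece is the 250 bases in front of the most upstream ZEB1 start (chr10:31318167-31318416, + strand), with its single CAGGTG in capitals.

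ZEB1: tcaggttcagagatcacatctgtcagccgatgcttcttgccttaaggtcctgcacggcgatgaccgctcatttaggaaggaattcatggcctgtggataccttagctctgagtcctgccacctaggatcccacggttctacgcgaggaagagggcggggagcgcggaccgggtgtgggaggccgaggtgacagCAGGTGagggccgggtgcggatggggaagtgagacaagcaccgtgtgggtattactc

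The next pieces hold the letters CCGTTA, the core bound by OVOL factors, or their reverse complement TAACGG, in capitals. The ZEB2 piece is chr2:144520079-144520108 on the - strand, with the letters beginning at base 24 counted from a start, and the ZEB1 piece is chr10:31319553-31319582 on the + strand, in the window of another ZEB1 start.

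ZEB2: gctctgcaggaaTAACGGtcctgcctcccg
ZEB1: cgcctccctggaCCGTTAgccggcgccgac

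Searched on both strands, CAGGTG was in 2 of the 10 member windows, both of ZEB1, against 20.6% of all 35116 windows. CCGTTA was in 2 of the 10 member windows, against 3.07% of all windows. AACCGGTT, the palindrome bound by GRHL factors, was in 0 of the 10 member windows and in 0.134% of all. The 7 windows of ZEB1 lie close together, and a match is a string of letters, not a measured binding site.

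Epithelial genes that SNAI and ZEB factors are known to repress were searched in the same way. Of the 24 such genes on the list used here, 14 were in the promoter table, and 12 of these had CAGGTG in at least 1 window (14 of 19 windows, 73.7%). The list was compiled from genes known as targets of factors that bind this box, so the share is a property of the list and not a result of the KO comparison. The box occurred more than once in a window of RAB25, OCLN, DSP, CLDN7, JUP, AP1M2, PATJ, MUC1 and CRB3. Upstream pieces of the last 3, picked after their values were seen, are shown as examples of repeated boxes: PATJ (chr1:61742300-61742479, + strand), MUC1 (chr1:155192916-155193015, - strand) and CRB3 (chr19:6464031-6464270, + strand). CAGGTG and its reverse complement CACCTG are in capitals.

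PATJ: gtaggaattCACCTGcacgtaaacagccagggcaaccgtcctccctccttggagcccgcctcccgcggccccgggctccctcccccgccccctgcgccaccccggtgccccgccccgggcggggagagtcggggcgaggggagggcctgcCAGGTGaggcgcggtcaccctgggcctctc
MUC1: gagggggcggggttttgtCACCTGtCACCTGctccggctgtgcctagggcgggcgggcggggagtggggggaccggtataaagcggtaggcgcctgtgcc
CRB3: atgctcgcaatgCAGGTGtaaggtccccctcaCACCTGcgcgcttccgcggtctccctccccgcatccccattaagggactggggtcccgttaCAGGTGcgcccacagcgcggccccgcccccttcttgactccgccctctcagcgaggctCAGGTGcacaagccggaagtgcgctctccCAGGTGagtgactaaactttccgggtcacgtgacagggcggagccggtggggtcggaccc

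Total counts per library were 36393224 to 43057305, so 1 count was worth 0.0232 to 0.0282 CPM, the library-scaled count after TMM normalization. FOXP4 itself was counted 2562 and 2463 times in the controls but 713 and 886 times in the KO pair, which gave a log2 fold change (KO minus control) of −1.78 (standard error, SE, 0.185, edgeR adjusted p = 0.0038), with both KO libraries below both controls. Of the 9 listed marker genes of the HEK293T line, 9 reached 1 TPM in some library, and their summed TPM was 190 to 222 in the controls, against 336 to 363 in the KO libraries. All 6 endothelial markers stayed under 1 TPM in every library, 6 of 8 haematopoietic and 7 of 8 squamous markers did so too. The 8 fibroblast markers summed to 7.63 to 9.18 TPM in the controls, against 8.89 to 12.9 TPM in the KO libraries, with COL1A2, DCN, PDGFRB, THY1 and FAP under 1 TPM throughout and PDGFRB called higher. The part of these markers in the results was not tested.

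Among the 10 factors, 1 (OVOL2) was called higher and 2 (SNAI2 and ZEB2) were called lower at an adjusted p under 0.05 from edgeR, 5 were tested and not called, and 2 were not tested. Over all tested genes, 13.8% were called higher and 12.1% lower, so a call by itself was common in this comparison. The CPM of the groups did not overlap for 7 of the 8 tested members, against 68.7% of all tested genes. GRHL1 is among the 7 only narrowly, at 11.3138 CPM in control replicate 1 and 11.3143 CPM in KO replicate 1. The fitted differences of SNAI2 and OVOL2 were beyond 4 log2 units in size, whereas the 5 tested members without a call lay between −0.46 and 0.43.

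**Figure D1:**
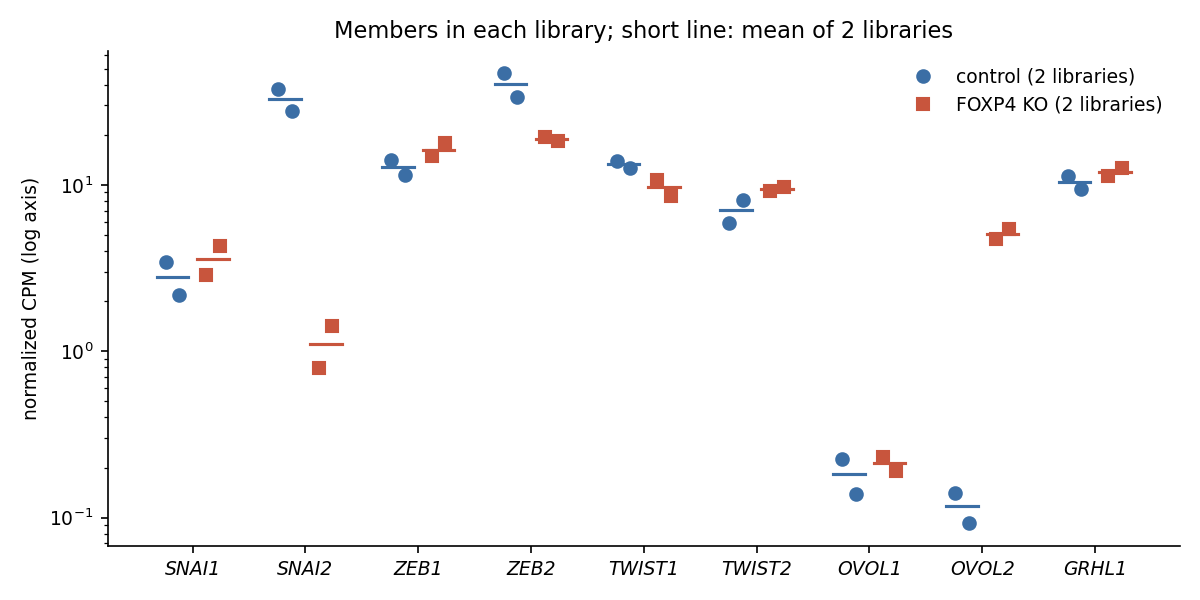
CPM after TMM scaling (log axis) of the 9 members of the count table in each of 2 control libraries (blue circles) and 2 FOXP4 KO libraries (red squares), with a short line at each group's mean. SNAI2 falls from 32.7 to 1.10 CPM and OVOL2 goes from 0.117 to 5.07 CPM, while the points of SNAI1 and OVOL1 overlap between the groups.

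SNAI2, which encodes SLUG, a repressor of CDH1 and a marker of neural crest and mesenchymal cells, had the highest TPM of the 10 factors in both control libraries, at 37.7 and 28.7. The gene (ENSG00000019549) lies on chromosome 8 at 48917604 to 48921740 in the GENCODE v29 annotation of GRCh38. It gave 1331 and 1200 reads in the controls, against 34 and 59 after FOXP4 loss. Both KO libraries were far below both controls, and neither KO count was near 0. In CPM the level was 32.7 ± 6.91 (SD, n = 2) in the control and 1.10 ± 0.441 (SD, n = 2) in the KO group. The control level was 29.4 times the KO level, with a 95% interval of 23.9 to 36.6 that covers counting error only (exact binomial). The fitted log2 fold change was −4.89 (SE 0.327), and leaving out 1 library at a time gave −5.37 to −4.53. On the log2(TPM + 1) scale the difference was −4.04. In bulk RNA, fewer cells with SNAI2 and less SNAI2 RNA per cell cannot be told apart.

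SNAI1, which encodes SNAIL, the closest relative of SLUG and an early driver of EMT, was much lower than SNAI2 in the controls on the TPM scale. It was counted 122 and 94 times in the controls, then 124 and 180 times in the KO pair, and the groups overlapped in CPM. The fitted log2 fold change was 0.36 (SE 0.331), not called. Leaving out 1 library moved it between 0.04 and 0.70, so its size rested on which libraries were compared.

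The makeup of the SNAI pair was therefore inverted. SNAI2 made up 90.2% and 91.6% of the summed TPM of SNAI1 and SNAI2 in the control libraries, against 18.8% and 21.6% in the KO columns. The sum of both genes was 41.8 and 31.4 TPM in the controls, against 4.19 and 6.43 TPM in the KO columns. SNAI1 was thus the main SNAI transcript of the pair after FOXP4 loss without a called change of its own. The KO columns of the TPM table are numbered, but their names do not give the replicates, so they are given as a group.

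ZEB2, a zinc finger and homeodomain repressor of CDH1, was the other member called lower. The gene (ENSG00000169554) lies at chr2:144364364-144524583. It gave 1660 and 1450 reads in the controls, against 840 and 769 after FOXP4 loss, so the groups did not overlap. In CPM this was 40.2 ± 9.38 (SD, n = 2) against 18.9 ± 0.762 (SD, n = 2), and the fitted log2 fold change was −1.09 (SE 0.188). The control libraries differed more from each other than the KO libraries did, at 46.8 and 33.6 CPM, and 19.5 and 18.4 CPM. The call did not hold without KO replicate 1 (log2 fold change −1.13) or without KO replicate 2 (−1.04). With either control library left out it was −0.85 and −1.31, with the call kept.

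ZEB1, the paralog of ZEB2 and a direct target of OVOL repressors, did not follow it. It was counted 500 and 498 times in the controls, then 639 and 741 times in the KO pair. In CPM the KO group was slightly higher, 16.3 ± 2.06 against 12.8 ± 1.82 (SD, n = 2 each), with a log2 fold change of 0.34 (SE 0.188), not called. The CPM of the groups did not overlap, but the TPM did, at 7.94 and 4.63 in the control group, against 5.60 and 7.0 in the KO columns. ZEB2 made up 73.4% and 75.0% of the summed ZEB TPM in the controls, against 62.4% and 51.8% in the KO columns.

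TWIST1 and TWIST2, the bHLH members, had differences of opposite sign, neither of them called. TWIST1, which is needed for mesenchyme of the head and limbs, gave 494 and 547 reads in the controls, against 461 and 359 after FOXP4 loss, a log2 fold change of −0.46 (SE 0.188), not called. TWIST2 was counted 210 and 351 times in the controls, then 396 and 407 times in the KO pair, a log2 fold change of 0.43 (SE 0.217), not called. The CPM of the groups did not overlap for either gene, and for TWIST2 the controls were further apart from each other (5.92 and 8.13 CPM) than control replicate 2 was from the KO libraries (9.18 and 9.74 CPM). The sum of both genes stayed close, at 29.1 and 30.6 TPM in the control group, against 27.6 and 31.7 TPM in the KO columns. With SNAI2 low, TWIST1 and TWIST2 held the first and second place among the 10 factors in both KO columns on the TPM scale.

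**Figure D2:**
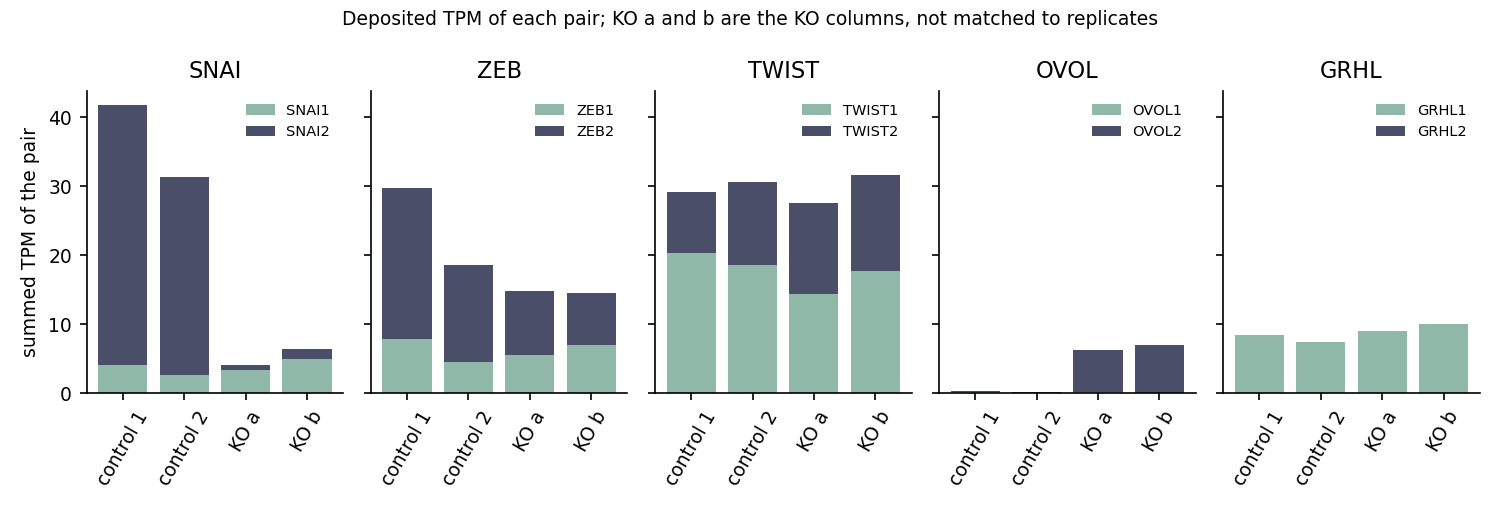
Deposited TPM of each pair of paralogs, stacked, in 2 control libraries and the 2 KO columns (a and b), which are not matched to replicate numbers. The SNAI bar shrinks from 41.8 and 31.4 to 4.19 and 6.43 TPM as SNAI2 is lost, the TWIST bar stays between 27.6 and 31.7 TPM, and the OVOL bar goes from under 1 TPM to 6.35 and 7.01 TPM.

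OVOL2, a zinc finger repressor that holds epithelial cells in their state and represses ZEB1, went from near absence to a low level. It gave 5 and 4 reads in the controls, against 204 and 226 after FOXP4 loss. In CPM this was 0.117 ± 0.0343 (SD, n = 2) against 5.07 ± 0.479 (SD, n = 2). The KO level was 44.2 times the control level, with a wide 95% counting interval of 23.1 to 97.4 (exact binomial) that comes from the 9 control counts. The fitted log2 fold change was 5.43 (SE 0.351), and leaving out 1 library at a time gave 5.13 to 5.71. On the log2(TPM + 1) scale, which understates the change of a gene near 0, the difference was 2.70, and with log2(TPM + 0.1) it was 4.71. In TPM it was 0.183 and 0.123 in the control group, against 6.09 and 6.90 in the KO columns, below TWIST1, TWIST2, ZEB2 and GRHL1 in both columns and below ZEB1 in one.

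The annotated span of OVOL2 (ENSG00000125850, chr20:17956979-18059188, - strand) overlaps MGME1, a mitochondrial exonuclease gene on the opposite strand, and SNX5, a sorting nexin gene on the same strand. Whether reads were counted by strand is not given in the sources used here. MGME1 was counted 2253 and 2516 times in the controls, then 5400 and 4484 times in the KO pair (log2 fold change 0.93, SE 0.128, edgeR adjusted p = 0.0068). SNX5 gave 7601 and 7722 reads in the controls, against 13332 and 12240 after FOXP4 loss (log2 fold change 0.61, SE 0.130, adjusted p = 0.0205). Both overlapping genes were abundant in the control libraries, where OVOL2 had 5 and 4 counts. Whether reads of these genes entered the OVOL2 counts was not tested.

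Some genes around OVOL2 were also called higher, with far smaller values. Of 14 tested genes with a start within 1 Mb, 7 were called higher and 0 lower, among them PET117 and KAT14 on the upstream side, and their log2 fold changes had a median of 0.48 and ran from −0.95 to 0.93. Over the 391 tested genes of chromosome 20, 60 were called higher and 50 lower, and the median was −0.03. Around OVOL1, 17 of 79 tested neighbours were called higher and 3 lower, with a median of 0.18, beside 127 higher and 102 lower of 815 on chromosome 11, with a median of 0.08. Within 0.5 Mb the median was 0.47 around OVOL2 and −0.00 around OVOL1. The median of the tested neighbours was −0.22 for SNAI1 (21 genes), −0.26 for TWIST2 (12 genes) and −0.00 for GRHL1 (17 genes). SNAI2 had 3 tested neighbours, with a median of −0.17 and 0 called lower, and ZEB2 had a single one, GTDC1, at 0.36.

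**Figure D3:**
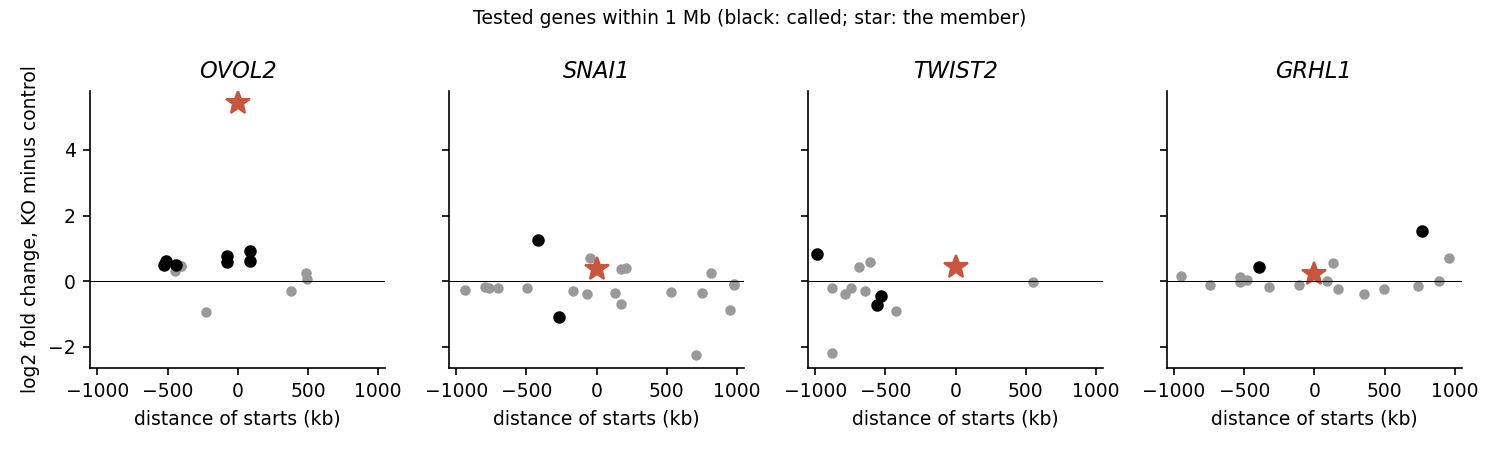
Log2 fold change (KO minus control) of tested genes whose start lies within 1 Mb of the start of OVOL2, SNAI1, TWIST2 or GRHL1, against the distance in kb (positive is downstream of the member's start). Stars mark the members and black points are called genes: around OVOL2, 7 of 14 are called, all higher and none above 0.93, far below OVOL2 itself at 5.43.

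OVOL1, the paralog of OVOL2 that acts in epidermis and germ cells, stayed at the limit of detection. It was counted 8 and 6 times in the controls, then 10 and 8 times in the KO pair, did not pass the filter, and overlapped between the groups. The ratio of KO to control was 1.19 with a 95% interval of 0.559 to 2.59 that covers counting error only. At this depth the ratio was therefore poorly determined. OVOL2 made up 42.9% and 56.9% of the summed OVOL TPM in the control libraries, where the sum was 0.426 and 0.216 TPM, and 96.0% and 98.4% in the KO columns.

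GRHL1, an activator of desmosomal genes in epidermis, was expressed in all libraries. It gave 401 and 407 reads in the controls, against 488 and 524 after FOXP4 loss, and the log2 fold change was 0.20 (SE 0.183), not called. The higher control library and the lower KO library were both at 11.3 CPM after rounding, so the groups were barely apart. GRHL2, which binds and opens enhancers of epithelial genes including CDH1, was listed at 0.018 TPM in control replicate 2 and at 0 in the other 3 columns. No GRHL gene was called, while OVOL2 was.

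**Figure D4:**
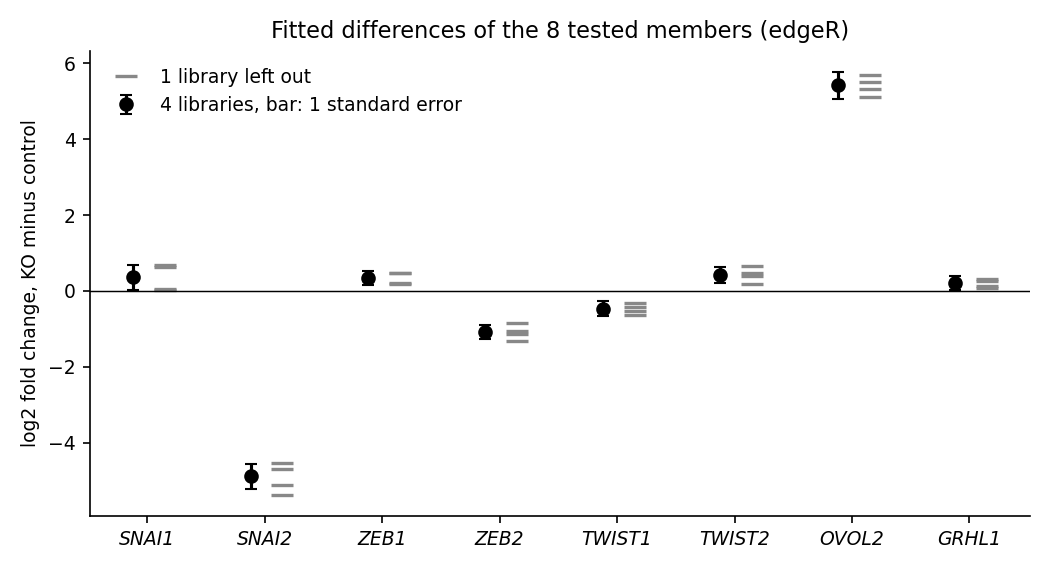
Fitted log2 fold change (KO minus control, edgeR) of the 8 tested members with 1 standard error (black) and the 4 values with 1 library left out (grey dashes). SNAI2 at −4.89 and OVOL2 at 5.43 stand far from 0, ZEB2 is at −1.09, and the other members lie between −0.46 and 0.43.

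Summed by role on the TPM scale, the 6 EMT drivers made 100.7 and 80.5 TPM in the control libraries, against 46.7 and 52.6 TPM in the KO columns. The 4 epithelial factors made 8.83 and 7.67 TPM in the control group, against 15.4 and 17.1 TPM in the KO columns. The ratio of the sums was 11.4 and 10.5 in the controls, against 3.02 and 3.08 in the KO columns, so the drivers remained the larger sum in every library. Most of both changes came from SNAI2 and OVOL2, whose results were known when the genes were chosen. SNAI2 was at 37.7 and 28.7 TPM in the controls, against 0.785 and 1.39 in the KO columns. For OVOL2 these values were 0.183 and 0.123, against 6.09 and 6.90. SNAI2 held the first place among the 10 genes in both control libraries, and fell to the eighth place in both KO columns.

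Among all tested genes, those whose pattern over the 4 libraries was nearest to a strongly changed member were found by the Euclidean distance of centred log2 CPM. Nearest to SNAI2 were PUDP (distance 0.52), a phosphatase gene with 455, 395, 6 and 19 counts in control 1, control 2, KO 1 and KO 2, then SLC16A14 (distance 0.68) and EMILIN2 (distance 0.99). Nearest to OVOL2 were SPINT1 (distance 0.17), which encodes an inhibitor of the epithelial protease matriptase and had 13, 12, 529 and 542 counts in the same order, then the homeobox gene HOXC12 (distance 0.25) and the neuronal bHLH gene NHLH2 (distance 0.36). With 4 libraries in 2 groups, the distance is set mostly by the size of the group difference.

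Genes that the SNAI and ZEB repressors are known to hold down were higher in part. This list and those below were chosen with earlier results of these data known, so their counts and p-values are a description. Of 24 listed epithelial targets, 20 were tested, 9 were called higher (45%), 0 lower and 11 were not called. Over all tested genes, 13.8% were called higher and 12.1% lower. The median log2 fold change was 0.94 against 0.01 over all tested genes. It fell between ST14 (0.92) and RAB25 (0.97), neither called and both under 1 TPM in every library. ESRP2, which sets epithelial splicing, was counted 16 and 18 times in the controls, then 1720 and 1862 times in the KO pair (log2 fold change 6.60, SE 0.203, edgeR adjusted p = 0.00022). EPCAM, an epithelial adhesion molecule, gave 25 and 52 reads in the controls, against 526 and 444 after FOXP4 loss (3.56, SE 0.302, edgeR adjusted p = 0.0023). TJP3, a scaffold of tight junctions, rose by 2.23 log2 units (SE 0.269, edgeR adjusted p = 0.0053).

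CDH1, which encodes E-cadherin and is the classic target of SNAI and ZEB repression, was counted 71 and 197 times in the controls, then 832 and 756 times in the KO pair. The log2 fold change was 2.50 (SE 0.371, edgeR adjusted p = 0.0081). The control libraries differed from each other, and the value became 2.01 when control replicate 1 was left out and 3.21 without control replicate 2, called in both. In TPM, CDH1 was at 0.827 and 1.93 in the control group, against 7.93 and 7.84 in the KO columns, so it stayed a weakly expressed gene. Of the genes whose upstream pieces are printed, PATJ and MUC1 rose by 0.47 and 1.02 on the log2 scale (adjusted p = 0.0308 and 0.0298 from edgeR), and CRB3, with its 5 boxes, had a log2 fold change of 1.07 and was not called (SE 0.703, adjusted p = 0.298). Among the other genes with repeated boxes, OCLN rose by 0.51 (adjusted p = 0.0443), and CLDN7, AP1M2, RAB25, DSP and JUP were not called, with log2 fold changes of 2.13, 1.78, 0.97, −0.19 and −0.47. The keratin genes KRT8 and KRT18, which were among the abundant genes of the list, were not called (0.52 and −0.03). Without KO replicate 1 the list had 5 genes called higher, and without KO replicate 2 it had 4.

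**Figure D5:**
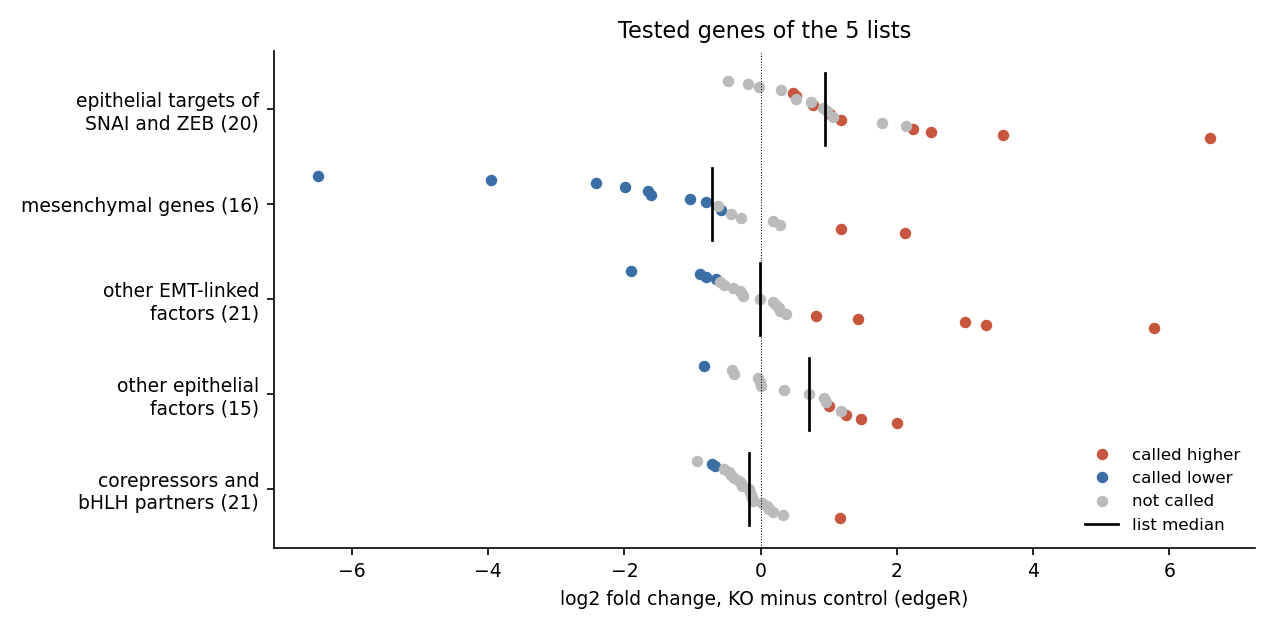
Log2 fold change (KO minus control, edgeR) of each tested gene of 5 lists, with the number tested in brackets, coloured red where called higher, blue where called lower and grey where not called, and the median of each list as a black line. The medians are 0.94 for the epithelial targets and −0.72 for the mesenchymal genes, and the other lists have calls in both directions.

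Mesenchymal genes of EMT moved mainly down. Of 22 listed genes, 16 were tested, 9 were called lower (56.2%) and 2 higher (12.5%), beside 12.1% and 13.8% of all tested genes. The median log2 fold change was −0.72 against 0.01 over all tested genes. SPARC, a matrix glycoprotein gene, gave 3883 and 3437 reads in the controls, against 59 and 30 after FOXP4 loss (−6.49, SE 0.331, edgeR adjusted p = 0.00092). The fibrillar collagen genes COL3A1 and COL5A2 were also called lower, with log2 fold changes of −3.96 and −2.42 (edgeR adjusted p = 0.0034 and 0.0018). Of the other fibrillar collagen genes of the list, COL5A1 was called lower (−1.04), COL1A1 was not called (0.17) and COL1A2 was not tested. VIM, which encodes the intermediate filament vimentin and is the usual marker of mesenchymal cells, was counted 27237 and 38308 times in the controls, then 10750 and 6957 times in the KO pair (−1.99, SE 0.213, edgeR adjusted p = 0.0041). It remained abundant after FOXP4 loss, at 245 and 155 TPM, above CDH1 on the same scale.

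The genes called higher in the mesenchymal list were LOX, a collagen cross-linking enzyme (log2 fold change 1.17, adjusted p = 0.0309 from edgeR), and PDGFRB, a growth factor receptor of mesenchymal cells (2.11, adjusted p = 0.0159), which stayed under 1 TPM at 0.612 and 0.646 in the KO columns. Neither was called without KO replicate 1 (adjusted p = 0.0872 for LOX and 0.0715 for PDGFRB) or without KO replicate 2 (0.0908 and 0.0771), so the count of 2 became 0 in both cases. The count of 9 called lower became 6 without either KO library.

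Other EMT-linked factors had no common direction. All 21 listed genes were tested, 5 were called higher (23.8%) and 4 lower (19%), beside 13.8% and 12.1% of all tested genes. The median was −0.01. PRRX1, a homeobox gene of mesenchyme and itself an EMT driver, gave 4 and 19 reads in the controls, against 594 and 745 after FOXP4 loss (log2 fold change 5.77, SE 0.477, edgeR adjusted p = 0.0021), a change in the direction of OVOL2 and opposite to SNAI2. Its value became 5.13 when control replicate 1 was left out and 7.08 without control replicate 2. KLF8 and SOX9 rose by 3.31 and 1.43 log2 units (edgeR adjusted p = 0.0085 and 0.0055), as did LEF1 by 0.81 (adjusted p = 0.0169). GATA6, a factor of endoderm and heart, had a log2 fold change of −1.90 (SE 0.131, edgeR adjusted p = 0.0015). TBX3, SOX4 and TBX2 were called lower as well, at −0.89, −0.66 and −0.80. The calls of LEF1 and TBX2 were each lost in 3 of the 4 fits without 1 library, and that of SOX4 in 2 of them.

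Of 21 other epithelial factors, 15 were tested, 4 were called higher (26.7%) and 1 lower (6.67%), with a median of 0.71. The shares over all tested genes were 13.8% and 12.1%. TFCP2L1, a relative of the GRHL family that acts in kidney ducts, rose by 1.47 log2 units (SE 0.157, edgeR adjusted p = 0.0040) and FOXA1 by 1.25 (adjusted p = 0.0049). MYRF rose by 1.01, with the call lost without KO replicate 2 (adjusted p = 0.0895), and CDX2, an intestinal homeobox gene, fell by 0.83, with the call lost without KO replicate 1 (adjusted p = 0.0690). GRHL3 was not called (0.96, SE 0.487), and TP63, EHF and ELF5 were listed at 0 TPM in every library.

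The last list held corepressors through which SNAI and ZEB proteins act and bHLH partners of TWIST. All 21 were tested, 1 was called higher (4.76%) and 2 lower (9.52%), beside 13.8% and 12.1% of all tested genes, and the median was −0.17. CTBP2, a corepressor that binds ZEB proteins, fell by 0.71 log2 units (SE 0.109, edgeR adjusted p = 0.0087), while its paralog CTBP1 was at 0.12 and not called. CHD4, the helicase of the NuRD complex, fell by 0.68 (adjusted p = 0.0134), and AJUBA, a LIM protein that bridges SNAI1 to its partners, rose by 1.17 (adjusted p = 0.0177). The calls of CHD4 and AJUBA were lost without either KO library, and that of CTBP2 without KO replicate 1 (adjusted p = 0.0556). The E protein gene TCF3, a partner of TWIST, was at −0.46 and not called (adjusted p = 0.0828). ID2, an inhibitor of bHLH factors, had an SE of 0.673, with 54.8 and 294 TPM in the control libraries, so its log2 fold change of −0.93 was poorly determined.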

How the data were processed

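RNA of HEK293T cells was sequenced in 2 control and 2 FOXP4 KO libraries. Gene-level counts, not normalized, were deposited by the authors together with TPM values, a unit that the authors scaled for transcript length and library size. No gene of the count table has a value of 0. For the alignment and counting, each tool and setting is not given in the sources used here. Mouse builds (GRCm38 and mm10) are listed in the submitters' processing notes although the identifiers are human; positions were taken from GENCODE v29 on GRCh38. Group differences in the deposited counts came from the quasi-likelihood test of edgeR 4.0.16 (R 4.3.3), after filterByExpr and TMM scaling and without covariates, with p-values adjusted by Benjamini-Hochberg over 14620 genes and a threshold of 0.05. Prior degrees of freedom were 4.30 and the common biological coefficient of variation was 0.165. The script was tested on simulated data. Alternatives used DESeq2 1.42.0, limma 3.58.1 (voom, and log2(TPM + 1) or log2(TPM + 0.1)), other scalings and filters, and each library left out. The TPM columns of the KO group were used only as a group, since their names do not give the replicates.

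Named were the 10 members, FOXP4, from each list up to 4 called genes a direction, by lowest p, CDH1 and VIM, and, for called members beyond 2 log2 units, the 3 nearest genes over 4 libraries by centred log2 CPM with a prior count of 2. Other genes were named after their values were seen. A gene that this rule names is not reported here. The members and the lists were chosen with earlier results of these data known. Counting intervals are 95% exact binomial intervals, scaled by the effective library sizes. RefSeq promoter windows were searched for exact letters on both strands. Antisense genes of ZEB1, ZEB2 and OVOL1 were in neither table, and reads from overlapping strands cannot be told apart. The replicates of a group differed beyond sampling noise (chi-square per degree of freedom 47.5 for the controls and 40.0 for the KO libraries).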

Additional observations from a re-analysis of the deposited data

How the results depend on the processing

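All 8 tested members kept their direction in the 14 alternatives, and 7 of them also their side of the threshold. ZEB2 was no longer called without KO replicate 1, without KO replicate 2 and with log2(TPM + 1) without a filter (−0.98, limma). Leaving out 1 library at a time, the genes called higher numbered 639 to 2013 (2013 with all libraries) and lower 467 to 1614 (1765). The members called lower were 1 to 2, the epithelial targets called higher 4 to 8, the mesenchymal genes called higher 0 to 2 and lower 6 to 9, and the other factors and partners called higher 6 to 9 and lower 2 to 8. Most of these falls came without a KO library, and the cause was not tested. DESeq2 called 1 epithelial target lower, against 0. The mesenchymal genes called higher were 1 with log2(TPM + 1) and 1 with log2(TPM + 0.1). With log2(TPM + 1) without a filter, where 20245 genes were tested, 349 genes were called higher and 297 lower, 1 member lower, 2 epithelial targets higher, 0 mesenchymal genes higher and 4 lower, and 2 other factors and partners higher and 1 lower. Upper-quartile scaling gave 2383 genes higher and 1368 lower, and moved the median of all genes from 0.01 to 0.08. The median of the genes near a member moved with the window (0.5 instead of 1 Mb) from −0.22 to −0.26 for SNAI1, −0.01 to 0.77 for ZEB1 (1 gene), −0.26 to −0.91 for TWIST2 (1 gene), 0.18 to −0.00 for OVOL1, −0.00 to −0.11 for GRHL1 and −0.11 to −0.31 for GRHL2 (1 gene). On the log2(TPM + 1) scale OVOL2 was at 2.70 and SNAI2 at −4.04, against 5.43 and −4.89. Depth limits OVOL1 and, in the controls, OVOL2.

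Control and KO libraries share the numbers 1 and 2. Their same-numbered deviations had a correlation of −0.00 over 14620 genes, so the numbers were not taken as pairs. With the replicate block, 1981 genes were called higher and 1637 lower, 1 epithelial target was called lower instead of 0, and the calls of the members were the same: SNAI2 at −4.90, ZEB2 at −1.07 and 1 member higher.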
